A study of Mus musculus with 6 samples.

Results

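Fibroblasts build the connective tissue of the skin, and besides collagen they make a set of surface proteins, proteoglycans and glycoproteins that organise it. The genes described here are 10 of that kind: Thy1, Dcn, Lum, Dpt, Fap, Fbn1, Postn, Fn1, Sparc and Twist2. They were chosen as non-control probes whose RefSeq accession maps to these symbols, which gave 12 probes for 10 genes, out of 55681 non-control probes and 21368 named genes on the array. Sparc had 3 probes and every other gene had 1.

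The samples were melanocyte stem cells, which renew the pigment cells of the hair, sorted from mouse skin as cells with green fluorescence and low side scatter. The source of that fluorescence and the age of the mice are not given in the sources used here. There were 3 WT and 3 K14-SCF Tg samples, all from male mice, each hybridised to its own Agilent array with 1 dye. The K14-SCF transgene places stem cell factor, which activates KIT, under the promoter of keratin 14, a gene of basal keratinocytes, so the sorted cells themselves are not the cells in which that promoter is chiefly active. The series compares the 2 genotypes. Nothing in the labels says that the numbered replicates are separate animals, so the tests below see the spread among these samples alone, and that spread may be technical.

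A level below is the log2 ratio of a probe's processed signal to the 75th percentile of its array. It is comparable between arrays for a given probe but not between probes. A log2 fold change is the Tg mean minus the WT mean, with its standard error (SE) from limma, and the adjusted p is limma's, adjusted by Benjamini-Hochberg across the 47709 probes tested. On each array between 78.4% and 87.1% of probes were well above background, a flag that the scanner software sets for each spot. WT replicate 1 was hybridised on a slide of its own, the other 5 arrays shared a slide, and the log2 fold changes of the 10 genes and the medians of gene lists are therefore also given without WT replicate 1.

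The sorted cells expressed the pigment program. All 10 melanocyte markers examined were well above background on all 6 arrays, among them Kit (4.35, 4.47 and 3.97 in WT and 3.87, 4.10 and 3.44 in Tg) and the melanin enzyme gene Dct (5.67, 6.08 and 5.60 in WT and 5.88, 6.07 and 5.70 in Tg). The melanocyte markers had a median log2 fold change of -0.05 (-0.11 without WT replicate 1). Of the 10 fibroblast and matrix genes, 8 were well above background on all 6 arrays, beside 41009 of all 55681 non-control probes. Dpt and Postn were so on 3 of the 6. In bulk RNA of this kind, which cells a signal comes from, their number and their RNA per cell cannot be told apart.

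The matrix these genes build has separable roles. THY1 and FAP sit on the fibroblast surface. Decorin and lumican are small leucine-rich proteoglycans that bind collagen fibrils and set their width and spacing, and dermatopontin binds decorin. Fibrillin-1 forms the microfibrils on which elastic fibres are laid down, and fibronectin forms the fibrils to which cells attach through integrins. Periostin and SPARC are matricellular proteins, which act on cell and matrix rather than serving mainly as structure. TWIST2 is a transcription factor of the dermal mesenchyme.

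None of the 12 probes passed the test between the genotypes (0 of 12 at an adjusted p under 0.05, beside 0.0021% of all tested probes). At an unadjusted p under 0.05, limma counted 1 of the 12, the Thy1 probe, beside 5.46% of all tested probes. The adjusted p-values lay between 0.564 and 1.00. Log2 fold changes were negative for 7 genes and positive for 3, with a median of -0.80, beside a median of -0.02 over all named genes, of which 52.3% were negative. Without WT replicate 1 the counts were again 7 and 3, and the median was -0.33, beside -0.03 over all named genes, of which 53.3% were negative. In that comparison 0 of the 12 probes passed (beside 0% of all tested probes), and the Thy1 probe was again the 1 at an unadjusted p under 0.05 (beside 5.61%). The genotypes did not overlap for 3 of the 10 genes (4 of the 12 probes), where 10.3% of all tested probes did not overlap. Thy1 and Sparc lay lower in Tg (3 probes, beside 4.71% of all tested probes) and Fap lay higher (1 probe, beside 5.63%).

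**Figure D1:**
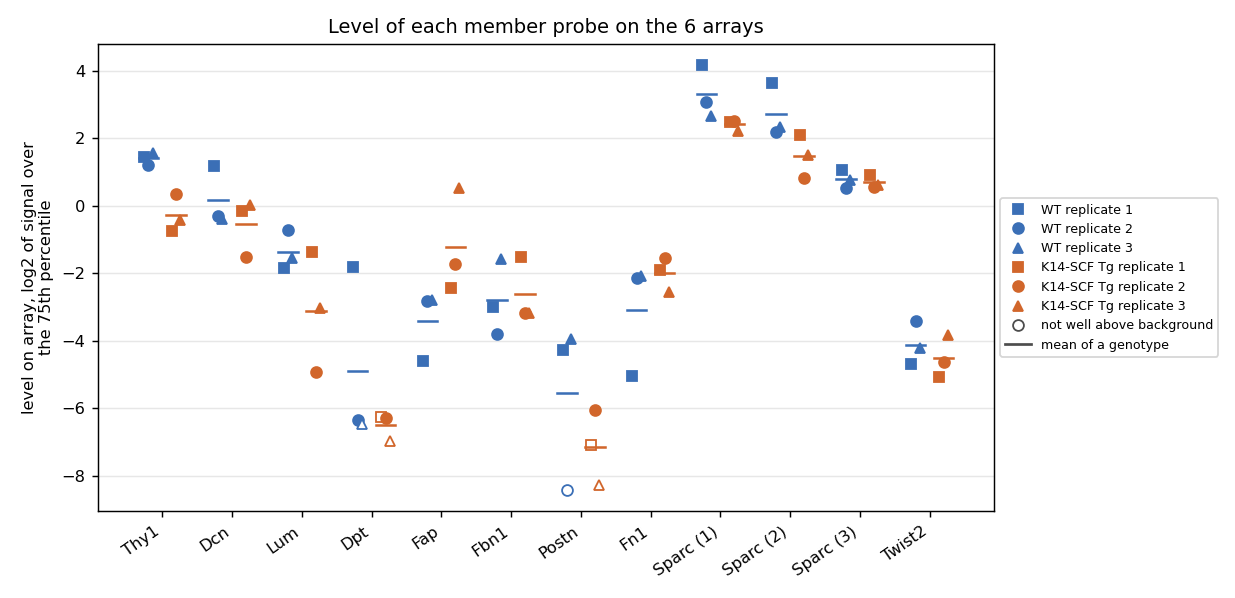
Level of each probe of the 10 genes on the 6 arrays, as the log2 ratio of signal to the 75th percentile (vertical axis), with WT on the left and K14-SCF Tg on the right of each probe, marker shape for replicate number, open symbols for spots not well above background and a line for the genotype mean; the 3 Sparc probes are numbered from the brightest. Thy1 separates the genotypes, with WT between 1.22 and 1.56 and Tg between -0.76 and 0.34, while the WT mean of Dpt rests on a single array at -1.81.

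Thy1, a surface glycoprotein of fibroblasts that T cells and neurons also carry, was the gene with the smallest p of the 10. Its level was 1.44, 1.22 and 1.56 in WT and -0.76, 0.34 and -0.43 in Tg. The 3 WT values lay within 0.34 of each other and all above the highest Tg value, with a gap of 0.88 between the genotypes. The means were 1.41 ± 0.17 in WT and -0.28 ± 0.57 in Tg (SD, n = 3 each), so the log2 fold change was -1.69 (SE 0.34; limma, adjusted p = 0.564). On the linear scale this is 3.23-fold lower in Tg. Leaving out WT replicate 1 left the difference almost as large, at -1.67 with an SE of 0.42 (limma, adjusted p = 0.688). An exact permutation test of this probe alone, 2-sided, gave p = 0.10, which is the smallest that 3 against 3 samples allow. Any probe whose genotypes do not overlap gives that value, as Fap and the brightest and second Sparc probes did, so it adds nothing to the separation itself. Leukocytes are another source of Thy1 in skin. All 8 leukocyte markers were well above background on at least 1 array, and their summed signal, in units of the 75th percentile, ranged from 1.39 to 5.38 in WT and from 1.50 to 2.82 in Tg. Such sums, here and below, are set mostly by the brightest probes of a list and do not measure the number of cells. The brightest of the leukocyte markers, the antigen presentation gene Cd74, stood at -0.59, 1.97 and 1.03 in WT and -1.27, -0.72 and -0.44 in Tg. Log2 fold changes of the list were negative for 3 genes and positive for 5, with a median of 0.23 (0.39 without WT replicate 1). The T cell receptor complex genes Cd3e and Cd3g differed by -0.20 (SE 0.44) and 0.35 (SE 0.50), and Tyrobp, an adaptor of myeloid and natural killer cells, by 2.35 (SE 1.02). Cd3e stood at -1.63, -0.14 and -0.28 in WT and -0.94, -0.88 and -0.83 in Tg, so the genotypes overlapped. The part of leukocytes in the Thy1 difference was not tested.

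Fap encodes fibroblast activation protein, a surface serine protease of activated fibroblasts. It had the opposite sign. Its level was -4.61, -2.82 and -2.81 in WT and -2.45, -1.73 and 0.53 in Tg, so every Tg array lay above every WT array. The means were -3.41 ± 1.04 in WT and -1.22 ± 1.55 in Tg (SD, n = 3 each), and the log2 fold change was 2.19 with an SE of 0.91 (limma, adjusted p = 0.917). The separation was narrow between WT replicates 2 and 3 and Tg replicate 1, and the size of the difference came largely from the array at each end. Without WT replicate 1, the lowest array, it was 1.60 with an SE of 0.94, and without Tg replicate 3, the highest, it was 1.32. Thy1 and Fap, both surface proteins by which fibroblasts are recognised, thus had log2 fold changes of opposite sign on the same 6 arrays.

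Among the small leucine-rich proteoglycans, Dcn, the gene of decorin, stood at 1.19, -0.31 and -0.38 in WT and at -0.17, -1.53 and 0.03 in Tg. WT replicate 1 was the highest array and Tg replicate 2 the lowest, and the other 4 arrays, from both genotypes, lay within -0.38 to 0.03. The log2 fold change of -0.72 (SE 0.61; limma, adjusted p = 0.984) shrank to -0.21 (SE 0.55) without WT replicate 1 and to -0.23 without Tg replicate 2. Lum, the gene of lumican, stood at -1.86, -0.71 and -1.54 in WT and at -1.36, -4.92 and -3.04 in Tg. Here the spread was among the Tg arrays: Tg replicate 1 lay within the WT values, whereas Tg replicates 2 and 3 lay below them. Its log2 fold change was -1.73 (SE 0.91; limma, adjusted p = 0.942), or -1.98 (SE 1.10) without WT replicate 1, -0.83 without Tg replicate 2 and -2.61 without Tg replicate 1. Of the 6 arrays, Tg replicate 2 therefore had the lowest signal for both proteoglycan genes.

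Dpt, the gene of dermatopontin, was bright on a single array. Its probe is printed in 10 spots on each array, which gives a direct measure of the error within an array. On WT replicate 1 all 10 spots were well above background, with a mean of -1.81 and an SD of 0.07 between spots. On the other 5 arrays the means were -6.36 and -6.48 in WT and -6.25, -6.30 and -6.96 in Tg, with SDs between spots from 0.28 to 0.78, and between 1 and 7 of the spots were well above background. WT replicate 3 and Tg replicates 1 and 3 counted as not well above background, so they have only a bound and no order. With these 3 raised to the dimmest signal that their array still held well above background, where their own was lower, WT replicate 1 exceeded every other array by at least 3.95 on the log2 scale. The log2 fold change over all 6 arrays was -1.62 with an SE of 1.29 (limma, adjusted p = 0.978). Without WT replicate 1 it was -0.08, with a 95% interval from -0.93 to 0.77. WT replicate 1 is also the array on a separate slide, so slide and sample cannot be told apart for this value.

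**Figure D2:**
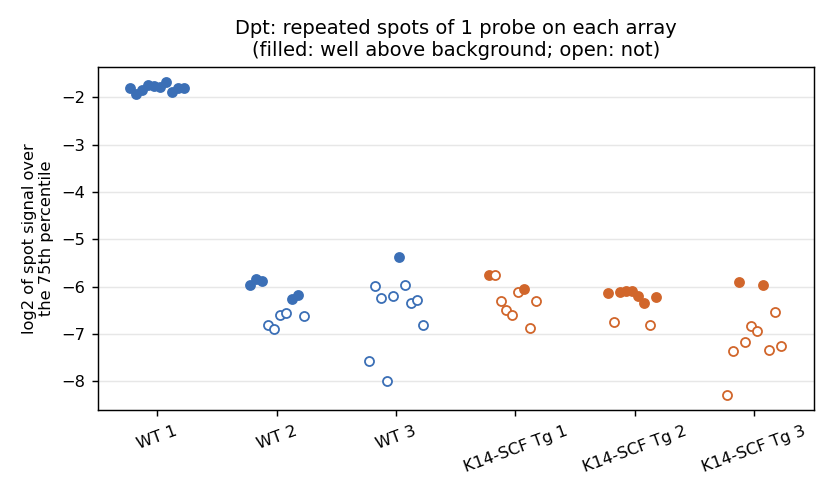
Repeated spots of the Dpt probe on each array, without outlier spots, as log2 of the spot's signal over the array's 75th percentile (vertical axis), with filled points for spots well above background. The spots of WT replicate 1 lie between -1.94 and -1.68 and those of all other arrays between -8.29 and -5.37.

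Dpt and Postn were the genes detected on some arrays and not on others, and the 250 bases before their annotated starts are shown for that reason (RefSeq, GRCm38.p6, both on the plus strand). That table held windows for 5 of the 10 genes: Dpt, Fbn1, Postn, Sparc and Twist2. Capitals mark the E-box CANNTG, the class of motif that TWIST proteins and other basic helix-loop-helix factors bind, in the Dpt window at chr1:164796413-164796662, and the TATA box TATAAA in the downstream of the 2 Postn windows, at chr3:54360857-54361106. CANNTG reads the same on both strands, and TATAAA was searched on both. Of the Postn windows, the downstream one is shown because it holds TATAAA, and the other holds none.
Dpt: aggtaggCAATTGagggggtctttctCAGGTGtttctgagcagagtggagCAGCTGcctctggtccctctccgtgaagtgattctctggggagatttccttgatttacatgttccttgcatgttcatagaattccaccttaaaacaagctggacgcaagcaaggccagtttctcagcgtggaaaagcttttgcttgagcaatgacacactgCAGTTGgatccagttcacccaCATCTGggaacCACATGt
Postn: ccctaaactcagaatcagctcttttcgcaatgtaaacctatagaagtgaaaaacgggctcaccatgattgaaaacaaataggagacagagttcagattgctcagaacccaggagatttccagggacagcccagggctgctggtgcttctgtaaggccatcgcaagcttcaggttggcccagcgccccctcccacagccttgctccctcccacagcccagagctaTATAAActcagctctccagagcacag

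The Dpt window held 6 E-boxes. Of 32851 promoter windows of the same length, 66.2% held at least 1 and 0.274% held 6 or more. Sparc held 2, where 31.8% of windows held 2 or more, and the windows of Fbn1, Postn and Twist2 held none. The TATAAA of the Postn window starts 26 bases before the annotated start, and 12.4% of all windows held that motif. These matches describe the sequence only.

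Postn, the gene of periostin, was well above background on 2 WT arrays and 1 Tg array. Its level was -4.27, -8.42 and -3.94 in WT and -7.09, -6.04 and -8.27 in Tg. WT replicates 1 and 3 and Tg replicate 2 were the arrays above background, and the other 3 have no order among themselves. The log2 fold change, -1.59, had an SE of 1.31 (limma, adjusted p = 0.981), with a 95% interval from -4.82 to 1.64. It ranged from -3.03 without WT replicate 2 to -0.79 without WT replicate 3. Without WT replicate 1 it was -0.95, and without Tg replicate 3 it was -1.02. Each of these values rests in part on signals not well above background.

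Sparc, whose protein binds collagen and regulates its assembly, was measured by 3 probes that refer to the same RefSeq transcript. The brightest read 4.16, 3.07 and 2.66 in WT and 2.48, 2.51 and 2.23 in Tg. The second read 3.63, 2.17 and 2.34 in WT and 2.11, 0.83 and 1.49 in Tg. On both probes all WT arrays lay above all Tg arrays, by a gap of 0.14 and of 0.06. The third probe read 1.07, 0.53 and 0.77 in WT and 0.93, 0.56 and 0.62 in Tg, where the genotypes overlapped and the 6 arrays spanned only 0.54. Log2 fold changes were -0.89 (SE 0.43), -1.24 (SE 0.52) and -0.09 (SE 0.25) for the probes in that order (limma, adjusted p = 0.933, 0.918 and 1.00). WT replicate 1 gave the highest value on each of the 3 probes. Without it the first differed by -0.46 (SE 0.27), the second by -0.78 (SE 0.44) and the third by 0.05 (SE 0.26).

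The fibre glycoproteins overlapped between the genotypes. Fn1, the gene of fibronectin, stood at -5.04, -2.16 and -2.09 in WT and at -1.90, -1.55 and -2.54 in Tg. WT replicate 1 was low by 2.50 against the next array, and the other 5 arrays lay within 1.00 of each other. The log2 fold change was 1.10 (SE 0.86; limma, adjusted p = 0.977) with that array and 0.12 without it, with a 95% interval from -0.85 to 1.10. Fbn1, the gene of fibrillin-1, stood at -2.99, -3.81 and -1.56 in WT and at -1.51, -3.18 and -3.18 in Tg. Its highest arrays, WT replicate 3 and Tg replicate 1, came from different genotypes, and the log2 fold change, 0.17, was smaller than its SE of 0.73 (limma, adjusted p = 1.00). It was 0.06 (SE 0.90) without WT replicate 1. It was negative, at -0.34 and -0.39, without WT replicate 2 and without Tg replicate 1, and 0.78 without WT replicate 3.

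Twist2, the transcription factor of the set, stood at -4.69, -3.43 and -4.22 in WT and at -5.08, -4.62 and -3.82 in Tg. The genotypes overlapped, and the log2 fold change was -0.39 with an SE of 0.47 (limma, adjusted p = 0.988), or -0.68 with an SE of 0.50 without WT replicate 1. It was -0.05 without WT replicate 2, -0.10 without Tg replicate 1 and -0.73 without Tg replicate 3. Its paralogue Twist1 stood at -3.76, -2.85 and -1.18 in WT and at -3.12, -3.38 and -4.83 in Tg, a difference of -1.18 (SE 0.79; limma, adjusted p = 0.963), or -1.76 (SE 0.77) without WT replicate 1.

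**Figure D3:**
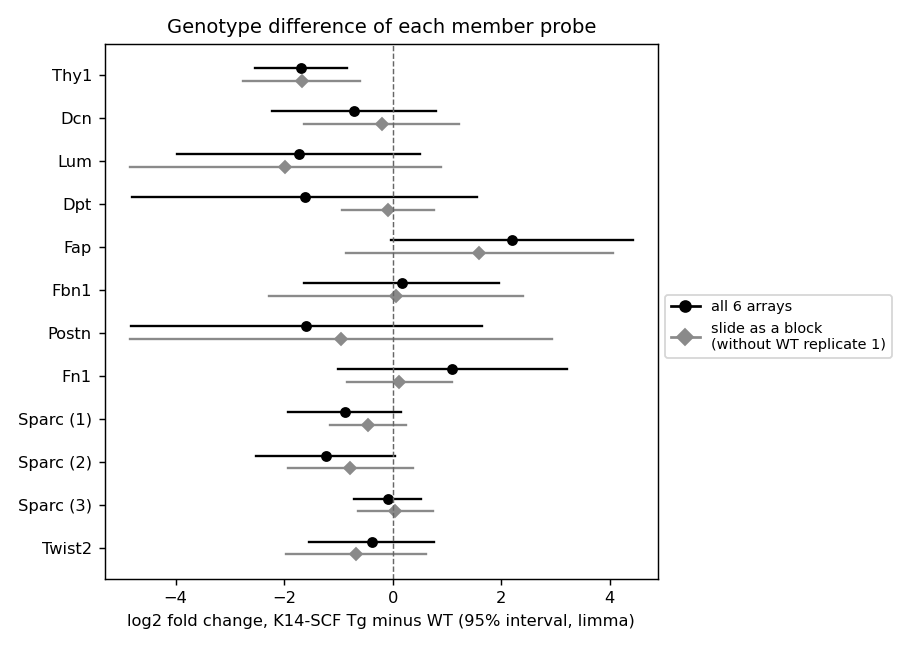
Log2 fold change (K14-SCF Tg minus WT, horizontal axis) of each probe with its 95% interval from limma, over all 6 arrays (black circles) and with slide as a block, which leaves WT replicate 1 without weight (grey diamonds). Dpt moves from -1.62 to -0.08 and Fn1 from 1.10 to 0.12, while Thy1 stays at -1.69 and -1.67.

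WT replicate 1 lay outside the other 5 arrays for 5 of the 10 genes. It was the highest array for Dcn, Dpt and Sparc and the lowest for Fap and Fn1. On 6 of the 12 probes it lay more than 1 log2 unit outside the range of the other 5 arrays, beside 3.81% of all tested probes. For the other arrays that count was 2 of 12 for Tg replicate 2 (Dcn and Lum, beside 2.49%), 1 of 12 for Tg replicate 3 (Fap, beside 3.92%) and 0 of 12 for WT replicate 2 (4.16%), WT replicate 3 (5.55%) and Tg replicate 1 (3.01%). Over all tested probes, WT replicate 1 was thus not the array that stood apart most often. Leaving it out made the log2 fold change smaller in size for 8 of the 10 genes, the exceptions being Lum and Twist2. For Thy1 the change was small, from -1.69 to -1.67. No share over all genes was taken for this count, or for the counts of genes highest or lowest on this array. The values of WT replicate 1 did not go 1 way: 3 of these genes were high there and 2 were low.

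**Figure D4:**
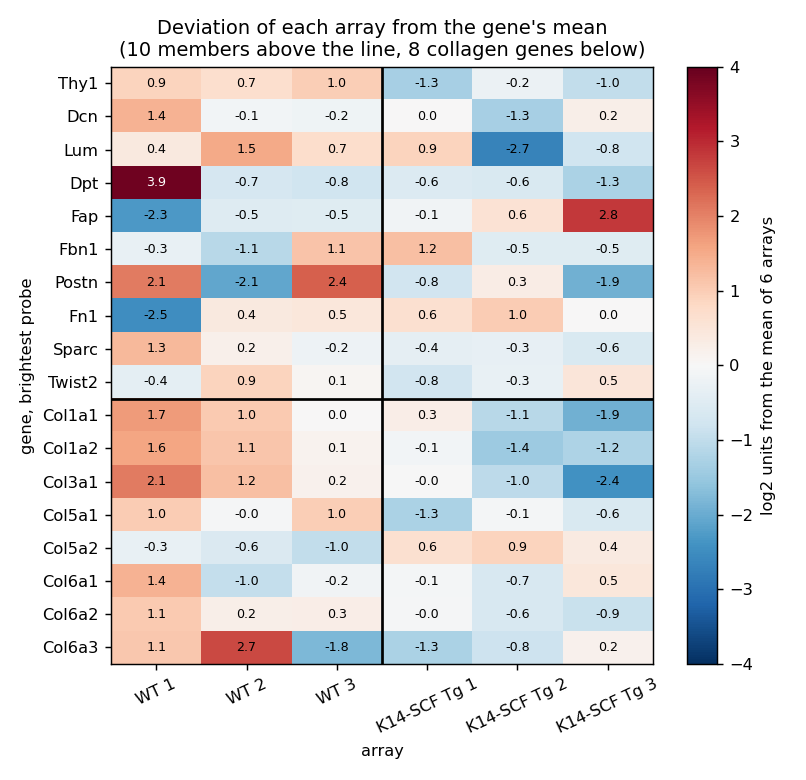
Deviation of each array (columns) from a gene's mean over the 6 arrays, in log2 units, for the brightest probe of the 10 genes (above the line) and of 8 collagen genes (below it); red is above and blue below the mean. WT replicate 1 is high for Dpt, Dcn and Sparc and for most collagen genes, and low for Fn1 and Fap.

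Collagen genes were set beside them, since the same cells make both. Col1a1 read 4.01, 3.36 and 2.33 in WT and 2.60, 1.21 and 0.41 in Tg, and Col3a1 read 3.88, 2.99 and 1.96 in WT and 1.77, 0.75 and -0.62 in Tg. Of the 8 collagen genes 7 had negative log2 fold changes (beside 52.3% of all named genes), with a median of -1.29 (-1.10 without WT replicate 1), and none passed. At an unadjusted p under 0.05, limma counted 5 lower and 1 higher, beside 2.25% and 3.21% of all tested probes. The genotypes did not overlap for 4 genes lower in Tg and 1 higher, beside 4.71% and 5.63% of all tested probes. The 1 higher in both counts was Col5a2, which had the smallest p of the 8. Its log2 fold change was 1.24 (SE 0.29; limma, adjusted p = 0.611), or 1.41 (SE 0.30) without WT replicate 1. Col5a2 was well above background on 2 WT and 3 Tg arrays. Like Dcn, Dpt and Sparc, 6 of these 8, Col1a1, Col1a2, Col3a1, Col5a1, Col6a1 and Col6a2, were highest on WT replicate 1. The share of all genes highest on that array was not taken.

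Other matrix genes were grouped in lists by role, and limma called 0 genes higher and 0 lower in each of the lists below. Of the small leucine-rich proteoglycans and partners (9 with a probe, 6 tested), 7 were negative, with a median log2 fold change of -0.81 (-0.40 without WT replicate 1). The other 3, Ogn, Omd and Kera, did not pass the filter on background, and of the 6 tested 4 were negative, with a median of -0.61 (-0.44 without WT replicate 1). Biglycan's gene Bgn, at 0.70, -2.20 and -0.27 in WT and -1.83, -1.62 and -1.45 in Tg, was highest on WT replicate 1, as Dcn was. The elastic fibre genes, which include the partners of fibrillin-1 (17 tested), had a median of 0.10 (0.26 without WT replicate 1), with 5 negative and 12 positive. Mfap4, a microfibril-associated gene, ranged only from 1.80 to 1.93 over the 6 arrays. The matricellular genes (15 tested) had a median of 0.19 (0.31 without WT replicate 1), with 6 negative and 9 positive. Sparcl1, the close relative of Sparc, stood at 2.92, 3.05 and 3.35 in WT and at 3.64, 3.87 and 3.33 in Tg, and its log2 fold change of 0.51 (SE 0.26) had the opposite sign to the Sparc probes. The fibronectin receptors and partners (8 tested) had a median of -0.12 (-0.24 without WT replicate 1), with Itgb1, the shared beta subunit, at 0.07 (SE 0.26). At an unadjusted p under 0.05, limma counted 1 gene higher among the proteoglycans, 1 lower among the elastic fibre genes, 2 higher among the matricellular genes and 0 among the receptors, beside 3.21% of all tested probes higher and 2.25% lower.

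Other genes by which fibroblasts are identified, such as receptors, transcription factors and secreted factors, had log2 fold changes of both signs. Of the 19 such genes, 13 were well above background on all 6 arrays, beside 41009 of all 55681 non-control probes. There were 3 (Prrx2, Meox1 and En1) that were so on none, and 16 were tested. The 2 genes of the list with the highest mean, Gsn and S100a4, differed by -0.34 (SE 0.29) and 0.93 (SE 0.45). Pdgfra, the receptor that marks dermal fibroblasts, was well above background on 2 WT and 2 Tg arrays. Its log2 fold change was 1.27 (SE 0.99), and the genotypes overlapped. Prrx1 and Ly6a were among the negative ones, at -0.90 (SE 0.82) and -0.99 (SE 0.52). The list had a median of 0.20 (0.07 without WT replicate 1), with 7 negative and 12 positive, or 5 and 11 among those tested. Of all named genes 52.3% were negative. Without WT replicate 1, 8 of the list were negative, beside 53.3% of all named genes. At an unadjusted p under 0.05, limma counted 0 higher and 0 lower, beside 3.21% and 2.25% of all tested probes. Its summed signal in units of the 75th percentile ranged from 15.2 to 19.5 in WT and from 15.6 to 18.2 in Tg. The brightest genes set most of that sum, so it does not measure the share of fibroblasts.

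Sparc and Fn1 are also made by endothelial cells and pericytes. Of 8 endothelial markers, 7 were negative (beside 52.3% of all named genes), with a median of -0.81 (-1.15 without WT replicate 1) and 0 called. At an unadjusted p under 0.05, limma counted 0 of them, beside 2.25% of all tested probes lower and 3.21% higher. Their summed signal ranged from 3.01 to 6.15 in WT and from 2.32 to 3.11 in Tg, and all 8 were well above background on at least 1 array. The WT sums were 3.01, 3.58 and 6.15 for replicates 1, 2 and 3. The 8 pericyte and smooth muscle markers had a median of 0.11, which turned to -0.12 without WT replicate 1, and summed signals from 4.80 to 6.57 in WT and from 5.79 to 9.20 in Tg. Of these 4 were negative and 4 positive, and limma counted 1 lower at an unadjusted p under 0.05, Rgs5, beside 2.25% of all tested probes. Rgs5 was highest on WT replicate 1, at -0.82, and well above background on 3 WT arrays and 1 Tg array. Its log2 fold change was -3.82 (SE 1.51), or -3.16 (SE 1.74) without WT replicate 1, and the genotypes overlapped. Keratinocyte markers (10) had a median of -0.03 (-0.15 without WT replicate 1). Schwann cell markers (8) had a median of 0.16, which turned to -0.12 without WT replicate 1. The part of these cell types, or of the sorted melanocyte stem cells themselves, in the values of Sparc and Fn1 was not tested.

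**Figure D5:**
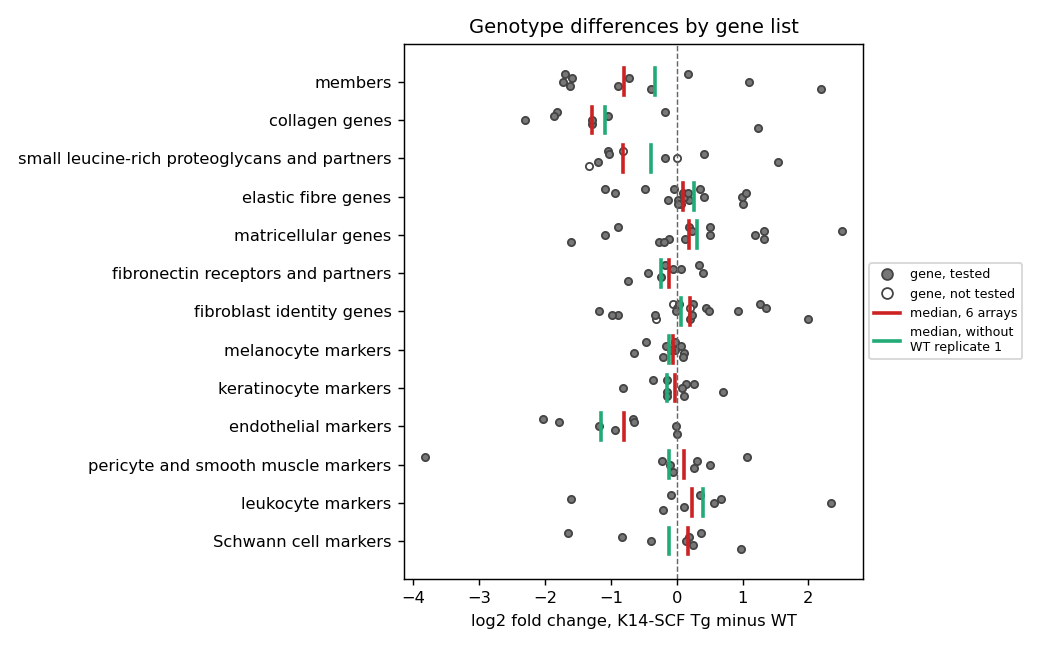
Log2 fold change (K14-SCF Tg minus WT, horizontal axis) of every gene of each list by its brightest probe, filled where tested, with the list's median over 6 arrays (red line) and without WT replicate 1 (green line). The row of members holds the 10 genes described here, whose median moves from -0.80 to -0.33, and collagen genes have a median of -1.29.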

How the data were processed

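The intensity values used were the processed signal and the median spot and background signals, per the file headers, from Agilent Feature Extraction 10.7.1.1, which the submitters' processing notes also name. The processed signal is corrected within an array and not normalized between arrays. The deposited value table holds a linear ratio: each column equalled the processed signal divided by a constant of its array, between 1405 and 1678, which is near the 75th percentile. The flags for each spot (other values, 0 or 1) were taken as deposited.

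Spots of a probe were averaged on the log2 scale without outlier spots, and a probe counted as well above background when 50% or more of its spots were. Probes so on at least 3 of 6 arrays were tested (all 12 probes of the 10 genes were) with limma's linear model and moderated statistics (limma 3.58.1, R 4.3.3), on 2 sides, without covariates, at a threshold of 0.05. The steps were tested on simulated data. A gene in a list was represented by its probe with the highest mean. Names came from RefSeq accessions (GRCm38.p6; 28331 of 29786 matched), while the probe design refers to mm9, so the only positions given are those of the 2 promoter windows, in GRCm38.p6. The 10 genes, the lists and the alternatives were chosen with earlier results of these data known. The rule for named genes took all 10 genes, Col1a1, Col1a2, Col3a1, Kit and Dct, and from each list the 2 genes with the highest mean plus any that passed; not all are printed. Twist1, Cd3g, Tyrobp, Ogn, Omd, Kera, Pdgfra, Prrx1, Ly6a, Prrx2, Meox1, En1, Rgs5, Col5a1, Col5a2, Col6a1 and Col6a2 fall outside it and were chosen after their values were seen.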

Additional observations from a re-analysis of the deposited data

How the results depend on the processing

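Alternatives covered normalization (quantile, median centring), the deposited values, normexp background correction, filters on dim probes, slide as a block, the replicate block, a trended and robust variance, the mean of probes, and leaving out each array; the fit without both arrays of slide row 2 (WT replicate 3 and Tg replicate 3) was chosen after the data were seen. In each of these, 0 of the tested probes of the 10 genes were called, and the smallest adjusted p from limma was 0.540. Over 200 values of single probes, 4 changed sign: Fbn1 without WT replicate 2 (-0.34) and without Tg replicate 1 (-0.39), within a range from -0.39 to 0.78 over the fits without 1 array, and the third Sparc probe with slide as a block and without WT replicate 1 (0.049 in both), within a range from -0.22 to 0.049. Many of the 200 could not change sign. The filters, the replicate block and the trended and robust variance leave the log2 fold change as it was. So does the mean of probes for a gene with 1 probe. Slide as a block gives the same log2 fold changes as leaving out WT replicate 1, so the third Sparc probe is counted under both. The median log2 fold change of the 10 genes moved from -0.80 to -0.33 with slide as a block, and ranged from -0.98 to -0.33 when each array was left out. Of all tested probes 1 was called, for Hpse, against 0 with normexp, with the filter on all 6 arrays, with slide as a block, with the trended and robust variance, without both arrays of slide row 2, and without any 1 array (0 to 0).

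Same-numbered arrays did not deviate together throughout (correlations 0.02, 0.05 and 0.13 for replicates 1, 2 and 3, across probes), so the numbers were not taken as pairs; with the replicate block 0 probes were called. The precision is limited by the number of arrays, and for Dpt and Postn by signals near background.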
